A study of Danio rerio with 4 samples.

Results

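Cardiomyocytes that held transcripts of anxa2a (ENSDARG00000003216, annexin A2) were picked from 2 single-cell RNA libraries of the 18-month zebrafish heart ventricle. A cell barcode counted as a cardiomyocyte when it had at least 200 detected genes, at most 25% of its UMIs (unique molecular identifiers, each one captured transcript) from mitochondrially encoded genes, and at least 3% from myl7, the cardiac myosin light chain. It counted as an anxa2a cardiomyocyte when it also held 2 or more anxa2a UMIs. This gave 105 cells, 17 in the uninjured and 88 in the injured library, out of 1671 cardiomyocytes, 3402 barcodes past the gene and mitochondrial filters in those libraries, and 11795 deposited barcodes in the series. Because anxa2a chose the cells, its own level and its share between libraries are a description. All other genes were set against cardiomyocytes of the same library with 0 anxa2a UMIs (1005 uninjured, 492 injured).

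The study sorted cells of AB-strain ventricles for the EGFP of a pdgfrb reporter, which marks mural cells and some fibroblasts and epicardial cells, and sequenced 4 droplet libraries, 1 per group. The 18-month fish carried pdgfrb:EGFP and cxcl12b:Citrine. They were either uninjured or taken 7 days after the apex of the ventricle had been cut off. The 6-month fish also carried fli1a:DsRed and were wildtype or homozygous for the um148 allele of pdgfrb. How many fish were pooled in a library is not given in the sources used here. With 1 library per condition no difference has a replicate check, no p-value is given, and every interval below is a 95% interval that covers counting error only.

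Annexins are calcium-dependent proteins that bind phospholipid membranes. Annexin A2 joins with the small S100 protein S100A10 at the cell membrane, where the complex is known from mammalian cells to link membrane to actin, to help close membrane wounds and to bind plasminogen. In the cut zebrafish ventricle, cardiomyocytes beside the wound form a border zone that loses mature features, turns on natriuretic peptide and other embryonic genes, and shifts towards glycolysis, and new muscle arises from these cells.

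anxa2a cardiomyocytes were common in the injured library and rare elsewhere. They made up 14.1% of injured cardiomyocytes (88 of 622, 11.5 to 17.1%) and 1.62% of uninjured ones (17 of 1049, 0.947 to 2.58%). In the 6-month hearts 1 of 672 wildtype (0.149%) and 1 of 891 mutant cardiomyocytes (0.112%) met the same rule, too few to compare across genes, and both of these cells carried RNA of other cell types (1.06% and 1.73% of their UMIs). An injured anxa2a cardiomyocyte held from 2 to 107 anxa2a UMIs with a median of 4, and an uninjured one from 2 to 11 with a median of 3. As CPM, UMIs scaled to the same total in every cell or class, anxa2a ran from 232 to 7850 with a median of 1000 in the injured cells, and from 241 to 3350 with a median of 530 in the uninjured cells. The ranges overlapped.

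Just inside the threshold lay 24 injured and 6 uninjured cells with 2 UMIs, and just outside it 42 and 27 cells with 1 UMI. Depth bears on a share of this kind, and the median total was 3077.5 UMIs in injured and 2735 in uninjured cardiomyocytes. When every cell was thinned to 1000 UMIs and shallower cells were left out (56 and 140), 5.65% of 566 injured and 0.219% of 909 uninjured cardiomyocytes held 2 or more anxa2a UMIs, against 15.4% and 1.76% of the same cells unthinned. In cell types that should lack the gene, 0 of 27 injured and 0 of 45 uninjured lymphocyte barcodes held any anxa2a UMI, which allows shares of up to 11.1% and 6.67% (3 counts of the total), at median depths of 1675 and 1636 UMIs. Of 40 injured erythrocyte barcodes 2 held 1 UMI and none held 2, at a median of 1519.5 UMIs. In the cell types where annexin A2 is usually found, 91.4% of injured and 78.9% of uninjured fibroblast barcodes, and 65.3% and 61.0% of endocardial ones, held 2 or more.

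**Figure D1:**
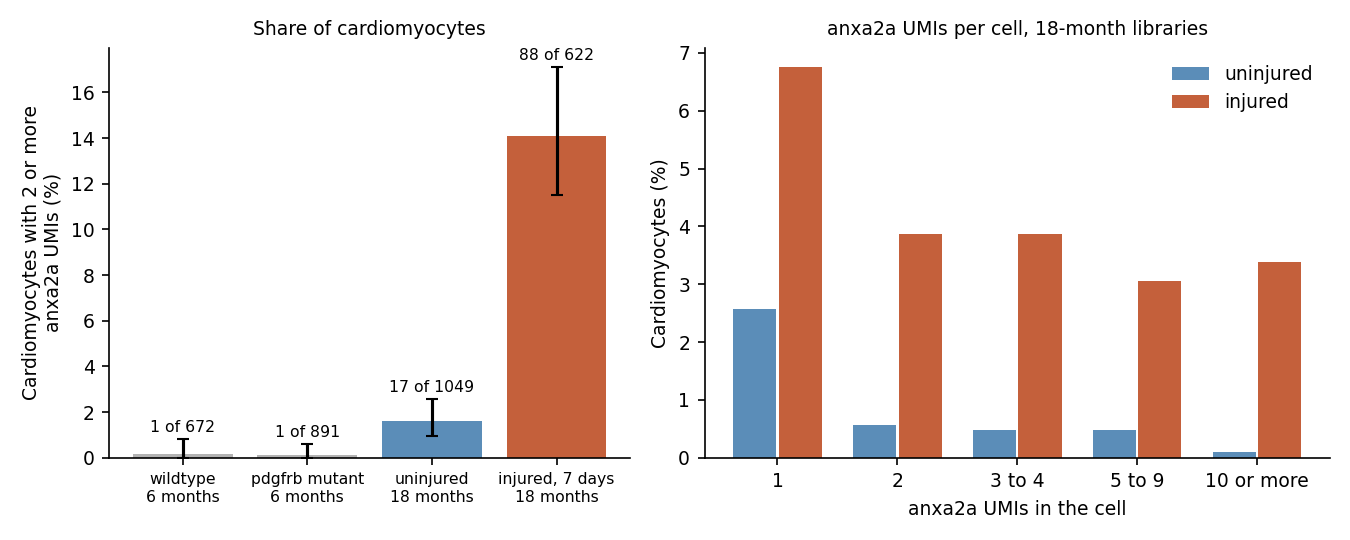
Left, percent of cardiomyocytes with 2 or more anxa2a UMIs in the 4 libraries, with Clopper-Pearson 95% intervals for counting error. Right, percent of 18-month cardiomyocytes with 1, 2, 3 to 4, 5 to 9 and 10 or more anxa2a UMIs. The injured library is higher in every bin, and 21 of its cells against 1 uninjured cell reach 10 UMIs.

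Because myl7 chose the cells, the other cardiomyocyte markers describe them and do not test the label. A barcode that mixed cell types would carry these markers too. All 14 other cardiomyocyte markers were found in the anxa2a cells of both libraries, and their summed level had a median of 13.4% of UMIs in injured anxa2a cardiomyocytes against 12% in anxa2a-zero ones (uninjured 15.2% and 12.9%). pdgfrb, the gene whose reporter was sorted for, had 0 UMIs in all 105 cells, which allows up to 3 UMIs in either group. EGFP had 8 UMIs in 3 of 88 injured cells (3.41%) and 2 UMIs in 2 of 17 uninjured cells (11.8%). In anxa2a-zero cells it had 4 UMIs in 3 of 492 (0.61%) and 13 UMIs in 9 of 1005 (0.896%), smaller shares than in the anxa2a cells. No anxa2a cardiomyocyte shared its barcode with another library.

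RNA of other cell types differed between the libraries. Summed over markers of epicardium, fibroblasts, mural cells, endocardium, leukocytes and thrombocytes, it passed 0.5% of UMIs in 5 of 17 uninjured anxa2a cardiomyocytes (0.672 to 2.19%) and in 1 of 88 injured ones (0.964%). The 5 uninjured cells had a median of 10535 UMIs. They held 274 of the 275 epicardium and 226 of the 227 endocardium marker UMIs of all 17 cells, and 35 of their 71 anxa2a UMIs. The limit was set on these same markers, so their pile-up in the 5 cells follows from it. In the other 12 uninjured cells the epicardium and endocardium lists came to 1 UMI each, but the fibroblast list to 8 and the mural list to 13. In the 88 injured cells, the fibroblast list came to 47 UMIs, 37 of them in the 1 cell over the limit (95.2 against 12 CPM in anxa2a-zero cells), and 5 of its 12 markers, with pdgfra, postnb and col5a1 among them, were at 0. The endocardium list came to 17 UMIs (34.5 against 13.2 CPM), with 6 of 12 markers at 0, pecam1 and kdrl included. The epicardium list came to 21 UMIs (42.6 against 26.4 CPM), with 7 of 10 at 0, tbx18, wt1a and wt1b included. The macrophage list came to 18 UMIs (36.5 against 9.18 CPM), with 7 of 12 at 0, mpeg1.1 included. The mural list came to 77 UMIs (156 against 89.5 CPM), all of rgs5b and tagln, in 8 cells each. None of these 5 lists passed 0.661% of the UMIs of a cell. tagln of the mural list was higher in both libraries, also without cells over the limit. Of the epicardium list krt94 was higher (13 UMIs in 3 cells against 16, log2 ratio 1.52), while the erythrocyte globin genes hbba1 (-1.60) and hbaa1 (-1.42), near copies, were lower in summed level. By cell, 19 of 88 anxa2a cardiomyocytes (21.6%) and 94 of 492 anxa2a-zero ones (19.1%) held 2 or more UMIs of the erythrocyte list. The highest single cells of the 2 classes had 0.154% and 14.2% of their UMIs on that list. The part of such RNA in the results was not tested, and uninjured values without the 5 cells stand beside those with them.

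Depth and RNA quality also moved with the class. The median total was 4764.5 UMIs in injured anxa2a cardiomyocytes against 2896 in anxa2a-zero ones (uninjured 5551 and 2697). Median mitochondrial UMIs were 0.32% against 0.659% (uninjured 0.351% and 0.794%) and median myl7 was 6.38% against 6.54% (uninjured 7.12% and 8.16%). Their part in the results was not tested beyond the depth-matched values given further on.

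In the injured library, anxa2a cardiomyocytes carried more transcripts of 6 of 12 cytoskeletal genes, tmsb4x among them, of s100a10b, the S100 partner of annexin A2, and of the thioredoxin gene txn. Of 19 sarcomere genes 0 were higher and 2 lower. Of 3163 genes with at least 20 UMIs, 371 (11.7%) were higher and 81 (2.56%) lower, where higher and lower mean a ratio of summed CPM beyond 1.5-fold with an interval that excludes 1. The median log2 ratio over 2805 genes was 0.20. With TMM scaling, which lowers every injured log2 ratio by 0.35, the split became 140 higher and 263 lower. Without the 1 cell over the limit for other-type RNA, 358 of 3150 (11.4%) were higher and 82 (2.6%) lower. Against 264 anxa2a-zero cells matched in depth (median 4310.5 UMIs), 296 genes were higher and 85 lower.

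Both measured S100 genes were higher. s100a10b, which encodes the partner of annexin A2, had 40 UMIs in 17 of 88 anxa2a cardiomyocytes and 32 UMIs in 14 of 492 anxa2a-zero ones, 81.1 against 18.4 CPM (log2 ratio 2.14, 1.44 to 2.86). Most cells of both classes were at 0, and the highest single cells, 1760 and 1840 CPM, were alike. icn, the other measured S100 gene, had 23 UMIs in 7 cells against 16 UMIs in 16 cells (2.34, 1.36 to 3.36). Among cells with at least 5% myl7, icn had a log2 ratio of -1.43 that was not called. Of the 7 other annexin genes measured, 4 were higher (median 0.88), beside 11.7% over all genes: anxa6 (1.25), anxa11a (1.11), anxa13 (0.98) and anxa11b (0.88). The values of anxa3b (0.71), anxa4 (0.44) and anxa1a (-0.18) were not called. With TMM scaling only anxa6 of these passed, and without the 3 cells that held most anxa2a, 2 did (anxa11a and anxa11b).

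Those 3 cells matter for many values below. They held 51 to 107 anxa2a UMIs each, 30.5% of the 833 anxa2a UMIs of the injured class, against 11.6% of its total UMIs. They were deep (14694 to 22574 UMIs) and low in myl7 (3.27 to 3.77%). A value is therefore also given without them where its call changed.

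Among cytoskeletal genes 6 of 12 were higher and 1 lower (median 0.52, all genes 0.20), beside 11.7% and 2.56% over all genes. With TMM scaling 5 were higher and 1 lower, and without the 3 cells 4 of 11 were higher and 1 lower. tmsb4x encodes thymosin beta 4, which holds actin monomers. Per cell it ran from 0 to 8120 CPM with a median of 938 in anxa2a cardiomyocytes, and from 0 to 5360 with a median of 272 in anxa2a-zero ones. It was found in 77 of 88 and 295 of 492 cells, and its summed level was 2.78-fold higher (1340 against 481 CPM, log2 ratio 1.48, 1.33 to 1.63). The classes overlapped over most of their range. msna, moesin, which ties actin to the membrane, was 300 against 108 CPM (1.48, 1.15 to 1.79). krt8, an intermediate filament of simple epithelia, was found in 21 of 88 against 30 of 492 cells (1.73, 0.97 to 2.48). tagln2, an actin-bundling transgelin, had 20 against 18 UMIs (1.97, 0.98 to 2.98). The remaining higher members were tpm3 (1.94), a tropomyosin, and cfl1 (0.69), the actin-severing cofilin. Neither was called without the 3 cells (0.74 and 0.52). lgals3b, a galectin, was lower (4 against 42 UMIs, -1.57).

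txn, thioredoxin, which reduces oxidised proteins, stood out in breadth. It was found in 45 of 88 anxa2a cardiomyocytes and 63 of 492 others, at 312 against 62.0 CPM (5.04-fold, log2 ratio 2.33, 1.97 to 2.70). Per cell it ran from 0 to 1730 CPM with a median of 93.9 in the first class. In the other class it ran from 0 to 1180 with a median of 0. It was the only one of the 8 measured genes of the oxidative stress list to be called. jpt1b, named as a microtubule-associated homolog, was 221 against 53.9 CPM (2.03, 1.62 to 2.45) and found in 44 against 70 cells. Without the 3 cells the ratios were 2.04 for txn and 1.77 for jpt1b, and both calls held with TMM scaling and among cells with at least 5% myl7.

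Other genes at the top of the injured ranking lay in few cells, rested on the 3 cells or had many of their UMIs in 1 cell. hspa8b, a copy of the constitutive heat shock protein gene hspa8, had 35 UMIs in 14 cells against 12 in 12 (3.36, 2.38 to 4.45). As a near copy its reads may be split with hspa8 by the counting. cdkn1a, the p21 inhibitor of the cell cycle, had 15 UMIs in 10 cells against 8 in 6 (2.73, 1.40 to 4.17), and 3.12, with too few UMIs for a call, among cells with at least 5% myl7. ric8a, a chaperone of G protein subunits, had 14 UMIs against 6 (3.04), 3.0, not called, without the 3 cells. The uncharacterised si:ch73-335l21.4 (2.08) was found in 21 of 88 cells, and 1 cell held 100 of its 201 UMIs. It was still called without the top cell of each class (1.32) and without the 3 cells (2.17). Of the 384 UMIs of the uncharacterised C25H11orf96 (1.71), 1 cell held 231. Without the 3 cells C25H11orf96 was at 0.33. The natriuretic peptide gene nppal (2.96) and the stretch-responsive repressor ankrd1a (2.87) had 90.6% and 77.4% of their UMIs in the 3 cells, and were at -0.26 and 0.90, not called, without them.

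**Figure D2:**
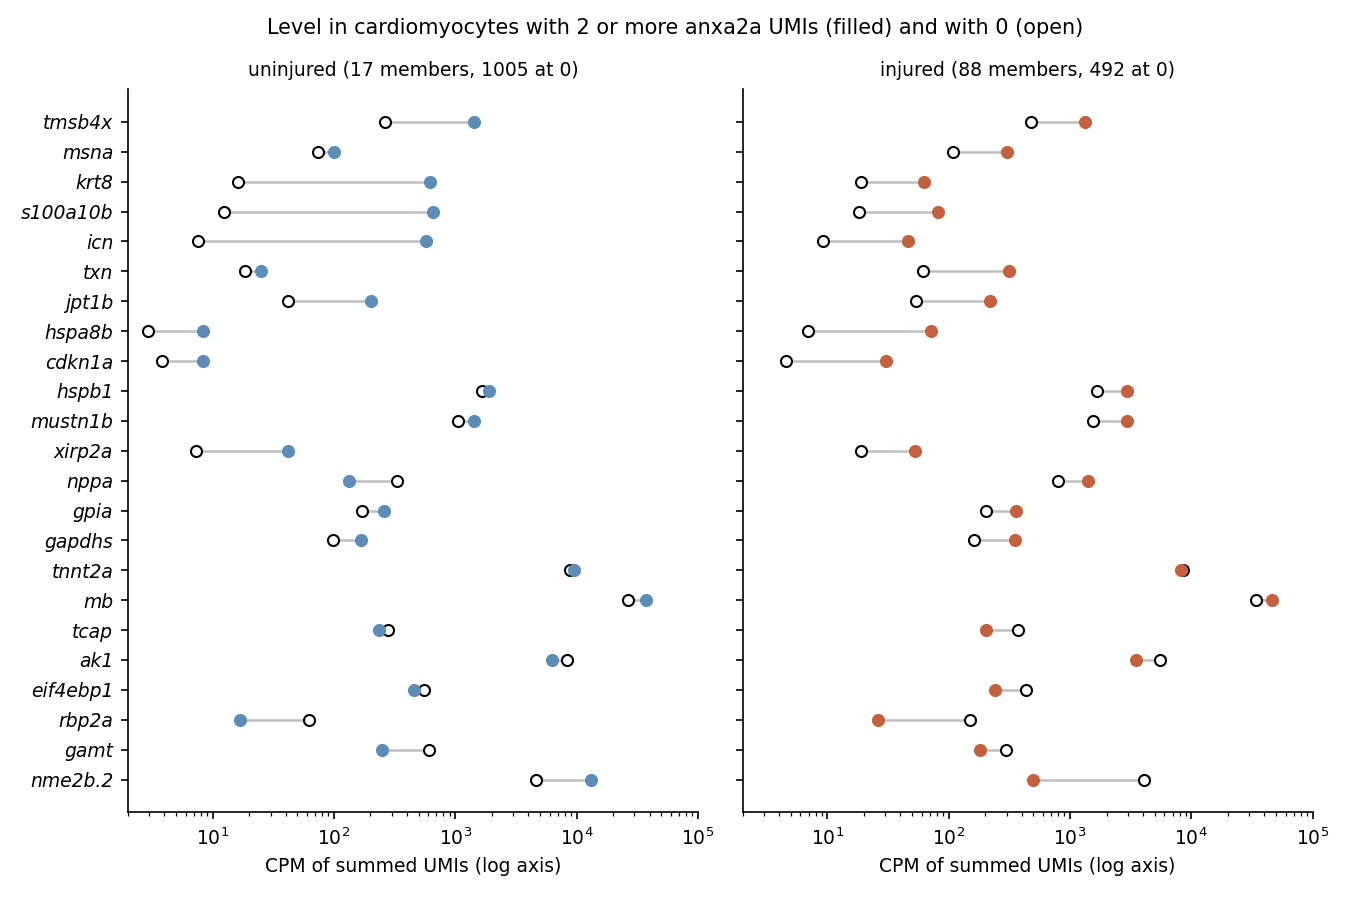
CPM of summed UMIs (log axis) of 23 genes in anxa2a cardiomyocytes (filled) and anxa2a-zero cardiomyocytes (open) of the uninjured (17 and 1005 cells) and injured library (88 and 492 cells). In the injured library tmsb4x lies at 1340 against 481, txn at 312 against 62.0 and nme2b.2 at 492 against 4110, while tnnt2a differs little (8160 against 8530).

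The border zone genes were higher as a count, but most of these calls were lost without few cells. Of 12 measured, 8 were higher and 0 lower (median 0.63), beside 11.7% higher and 2.56% lower over all genes. Without the 3 cells 2 were higher (0.33), among cells with at least 5% myl7 2 were higher and 1 lower (-0.04), and with TMM scaling 3 were higher and 1 lower (0.27). Over all genes the higher calls fell too, from 371 to 266, 172 and 140 in the same order. The lower calls went from 81 to 74, 93 and 263. mustn1b, a small nuclear protein gene of muscle regeneration, kept its call most often. Its per-cell level ran from 0 to 9250 CPM with a median of 1740 in anxa2a cardiomyocytes, and from 0 to 9500 with a median of 1110 in the others. It was 2960 against 1540 CPM (log2 ratio 0.95, 0.85 to 1.04), 0.69 without the 3 cells, 0.75 among cells with at least 5% myl7 and 0.59 with TMM scaling. xirp2a, a Xin repeat protein of the intercalated disc, had 26 against 33 UMIs (1.48, 0.68 to 2.26), with 15 of the 26 in 1 cell, and was at 0.58, not called, without the top cell of each class.

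nppa, atrial natriuretic peptide and a border zone marker, was 1420 against 803 CPM (0.82, 0.69 to 0.95). Per cell it ran from 0 to 12500 CPM with a median of 605 in anxa2a cardiomyocytes, and from 0 to 22800 with a median of 367 in the others. The 3 cells held 31.3% of its UMIs and the ratio was 0.46 without them, no longer a call. desma, the muscle intermediate filament desmin (0.88), csrp3, the muscle LIM protein (0.64), hspb11, a small heat shock gene (0.62), and xirp1, a second Xin gene (0.59), behaved alike, with 0.29, 0.36, 0.16 and 0.16 without the 3 cells. nppb, the second natriuretic peptide, was at 0.55, not called, and 46.5% of its UMIs lay in the 3 cells (-0.18 without them).

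Splitting the injured cardiomyocytes by myl7, a split chosen after the values were seen, divided these genes further. Cells with 3 to under 5% myl7 held 27 anxa2a cardiomyocytes (21.3% of 127) and 529 of the 833 anxa2a UMIs, and cells with at least 5% held 61 (12.3% of 495). In the low-myl7 cells nppb had a log2 ratio of 1.17 and csrp3 1.09, or 0.38 and 0.64 without the 3 cells. In the cells with at least 5% myl7, nppb was lower (-0.86), nppa was at -0.04 and csrp3 at 0.18. tmsb4x (1.34 and 1.46) and txn (2.31 and 1.53) were higher on both sides, also in the low-myl7 cells without the 3 cells (1.32 and 2.1). mustn1b (0.90 and 0.75) was too, but was at 0.39 (0.20 to 0.57), not called, in the low-myl7 cells without the 3.

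**Figure D3:**
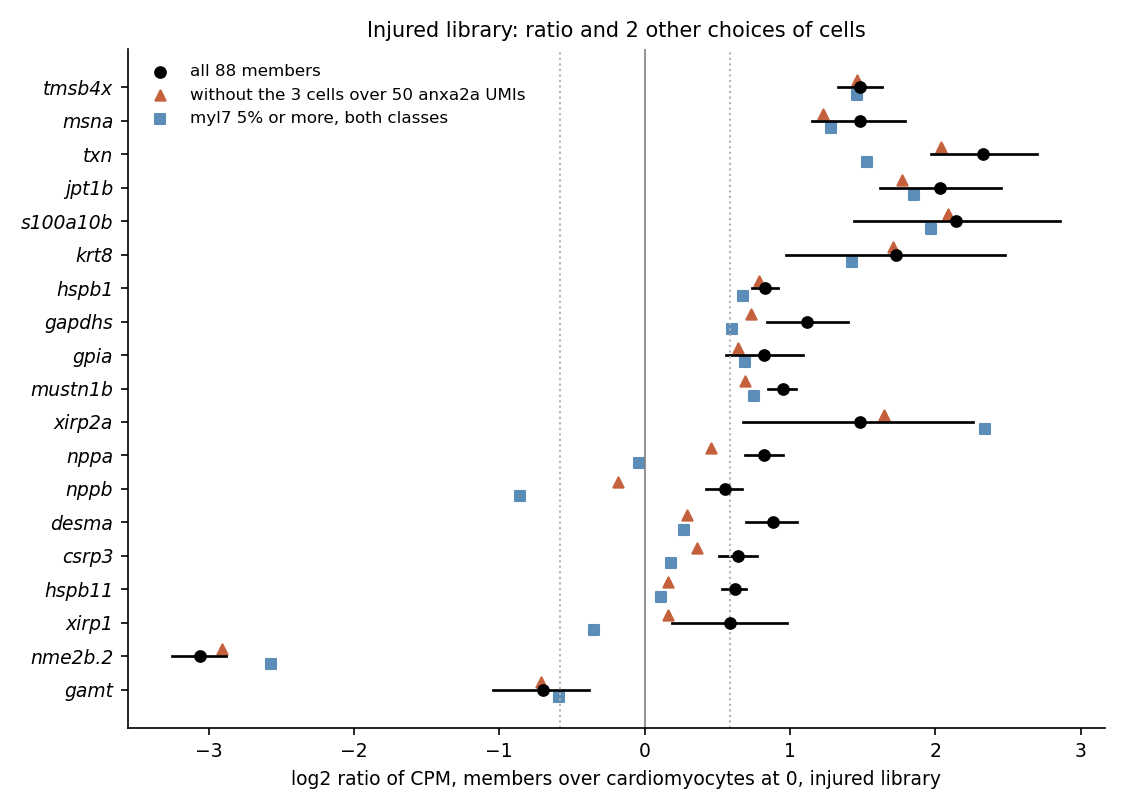
log2 ratio of CPM, anxa2a over anxa2a-zero cardiomyocytes of the injured library, for 19 genes, with the 95% counting interval (circles and lines). Triangles leave out the 3 cells with over 50 anxa2a UMIs, squares keep cells with at least 5% myl7, and dotted lines mark 1.5-fold. tmsb4x, txn, jpt1b, s100a10b and krt8 stay above a log2 ratio of 1 throughout, while nppa moves from 0.82 to 0.46 and -0.04, and nppb from 0.55 to -0.18 and -0.86.

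Heat shock genes were mixed, with 8 of 19 higher and 2 lower (median 0.47). With TMM scaling 4 were higher and 3 lower. Over all 3163 genes 11.7% were higher and 2.56% lower, and with TMM scaling 140 genes were higher and 263 lower. hspb1, a small heat shock protein that protects actin filaments, was 2960 against 1660 CPM (0.83, 0.74 to 0.92). Per cell its median was 1960 against 1090 CPM, and the call was lost with TMM scaling (0.48). hspb8 (1.07) and hsp90aa1.1 (0.87), a chaperone of myosin folding, were also higher, the latter not with TMM scaling (0.51). serpinh1b, a collagen chaperone (4.70), had 21 of its 22 UMIs in 1 cell. The inducible hsp70.1 (-1.14) and hsp70.2 (-0.64), near copies whose reads may be shared, were lower. Of 6 genes of the amino acid stress response driven by ATF4, ddit3 (1.59) and trib3 (0.99) were higher. Of 18 AP-1 and immediate early genes 5 were higher (median 0.30; 2 higher and 1 lower with TMM scaling), among them junbb (1.51) and jund (1.01).

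Energy genes were called mainly on the glycolytic list. Of 19 glycolytic genes 7 were higher and 1 lower (median 0.26), beside 11.7% higher and 2.56% lower over all genes. With TMM scaling 1 was higher and 3 were lower. gapdhs (1.12, 0.84 to 1.40) and gpia, glucose-6-phosphate isomerase (0.82, 0.56 to 1.09), were higher also without the 3 cells (0.73 and 0.64), as was eno1a, enolase (0.74 and 0.65). The calls of ldha, lactate dehydrogenase (0.72), and pkma, pyruvate kinase (0.71), were lost there (0.45 and 0.49). The second isomerase gene, gpib, was lower (7 against 65 UMIs, -1.39). Of 94 nuclear respiratory chain genes 4 were higher and 1 lower (median 0.10), with cox6a1 at 1.5. Of 14 fatty acid oxidation genes 2 were higher and 1 lower (0.06), and of 13 mitochondrially encoded genes 2 were lower (-0.49), 0 without the 3 cells and 11 with TMM scaling.

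Few contractile genes were called. Of 19 sarcomere and Z-disc genes 0 were higher and 2 lower (median 0.02), beside 11.7% higher and 2.56% lower over all genes. The lower ones were tcap, the titin cap (-0.87, -1.19 to -0.57), and actn2b, alpha-actinin (-0.65). With TMM scaling 6 of the list were lower. tnnt2a, troponin T, was at -0.06 and the oxygen store mb, myoglobin, at 0.46, neither called. None of 8 calcium handling genes was called (-0.03), among them the calcium pump gene atp2a2a (0.11). Of 81 ribosomal protein genes 1, rps27l, was higher (median -0.11; with TMM scaling 8 were lower).

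Smaller lists gave few calls, beside 11.7% higher and 2.56% lower over all genes (median 0.20). Of 8 membrane repair and caveolae genes capns1a, the small calpain subunit (0.91), was higher, with a list median of 0.28. Of 7 interferon and class I genes irf1b was higher (15 against 8 UMIs, 10 of them in 1 cell) and psmb8a lower (-0.59). Of 10 cardiac transcription factor genes and targets hand2 (0.66) and ccn1 (1.43) were higher, and 0 without the 3 cells. Only 2 cell cycle genes, 1 plasminogen gene and 1 atrial gene had enough UMIs to measure, and none was called. Citrine, the cxcl12b reporter, had 27 UMIs in 25 of 88 cells against 51 UMIs in 49 of 492 (0.90, 0.17 to 1.60; 0.55, not called, with TMM scaling).

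**Figure D4:**
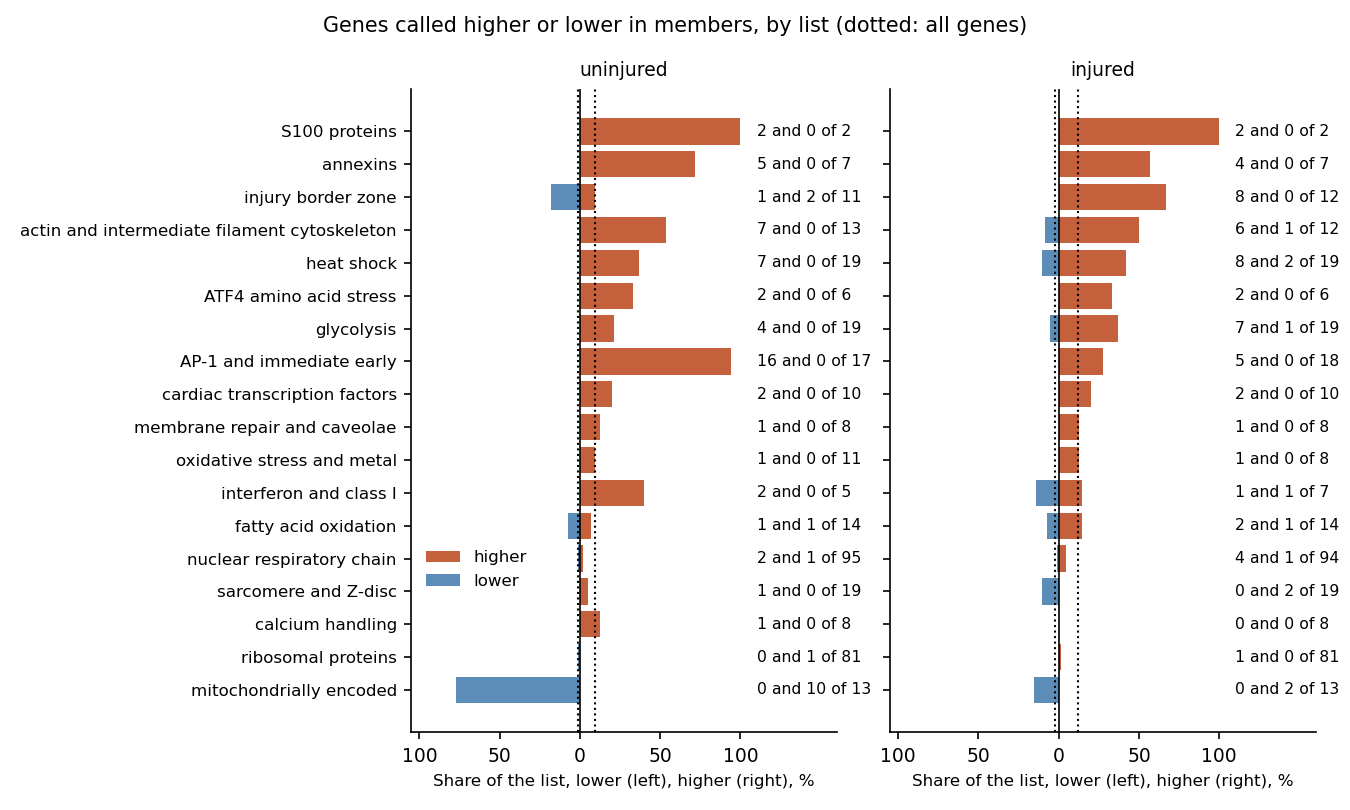
Percent of the measured genes of 18 lists that were higher (right) or lower (left) in anxa2a than in anxa2a-zero cardiomyocytes of each library, with the counts of higher and lower genes beside the bars. Dotted lines give the shares over all genes (9.61% and 1.4% uninjured, 11.7% and 2.56% injured). The AP-1 bar is long in the uninjured library, 16 of 17 against 5 of 18, and the border zone bar in the injured one, 8 of 12 against 1 of 11.

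The genes lowest in injured anxa2a cardiomyocytes included metabolic and growth regulators. ak1, adenylate kinase, was found in 88 of 88 and 491 of 492 cells at 3470 against 5520 CPM (-0.67, -0.74 to -0.59). eif4ebp1, a repressor of translation (-0.84), ccni, cyclin I (-0.77), rsl24d1, a ribosome assembly factor (-0.67), and mlip, a lamin-interacting muscle protein gene (-1.27), were lower as well. So were rbp2a, a retinol carrier (13 against 261 UMIs, -2.51), ddx54, an RNA helicase (7 against 158, -2.68), the galectin gene lgals17 (6 against 72, -1.76) and the uncharacterised si:ch211-5k11.8 (22 against 187, -1.27). The calls of ak1 (-0.45) and rsl24d1 (-0.56) were lost among cells with at least 5% myl7.

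nme2b.2, a nucleoside diphosphate kinase gene, was the lowest in the injured library and higher in the uninjured one. It was 492 against 4110 CPM in the injured library (243 against 7168 UMIs, log2 ratio -3.06, -3.25 to -2.88). It was found in 32 of 88 anxa2a cardiomyocytes, with a range of 0 to 6580 CPM and a median of 0, and in 267 of 492 others, with a range of 0 to 80300 and a median of 226. In the uninjured library it was 13200 against 4630 CPM (1.51, 1.44 to 1.59; 2.10 without the 5 cells with other-type RNA), was found in 17 of 17 cells and had a per-cell median of 7420 against 3310 CPM. The neighbouring copy nme2b.1, with which it may share reads, was at -0.03 and -0.14. Whether the spread of nme2b.2 between cells follows the fish pooled in a library was not tested. Because the share of anxa2a cells also differed with nme2b.2, this bears on every contrast here, not only on those of nme2b.2. Cut at 1000 CPM of nme2b.2, a limit chosen after the values were seen, 74 of 395 injured cardiomyocytes below the limit (18.7%, 15 to 22.9%) and 14 of 227 above it (6.17%, 3.41 to 10.1%) were anxa2a cells. In the uninjured library these were 0 of 216 below (which allows up to 1.39%, 3 counts of the total) and 17 of 833 above (2.04%, 1.19 to 3.25%).

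Levels also varied with the number of anxa2a UMIs in the injured cells. From cells with 0, 1, 2, 3 to 4 and 5 or more anxa2a UMIs, tmsb4x was at 481, 587, 900, 1140 and 1560 CPM. mustn1b was at 1540, 1230, 1480, 1850 and 3890 CPM and hspb1 at 1660, 1810, 1700, 2190 and 3680. The last 2 genes were therefore high mainly in the 40 cells with 5 or more anxa2a UMIs, whose median depth was 5691 UMIs, whereas tmsb4x was already above the anxa2a-zero level in the cells with 2. nme2b.2 was at 4110, 2360, 444, 1160 and 205 CPM.

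**Figure D5:**
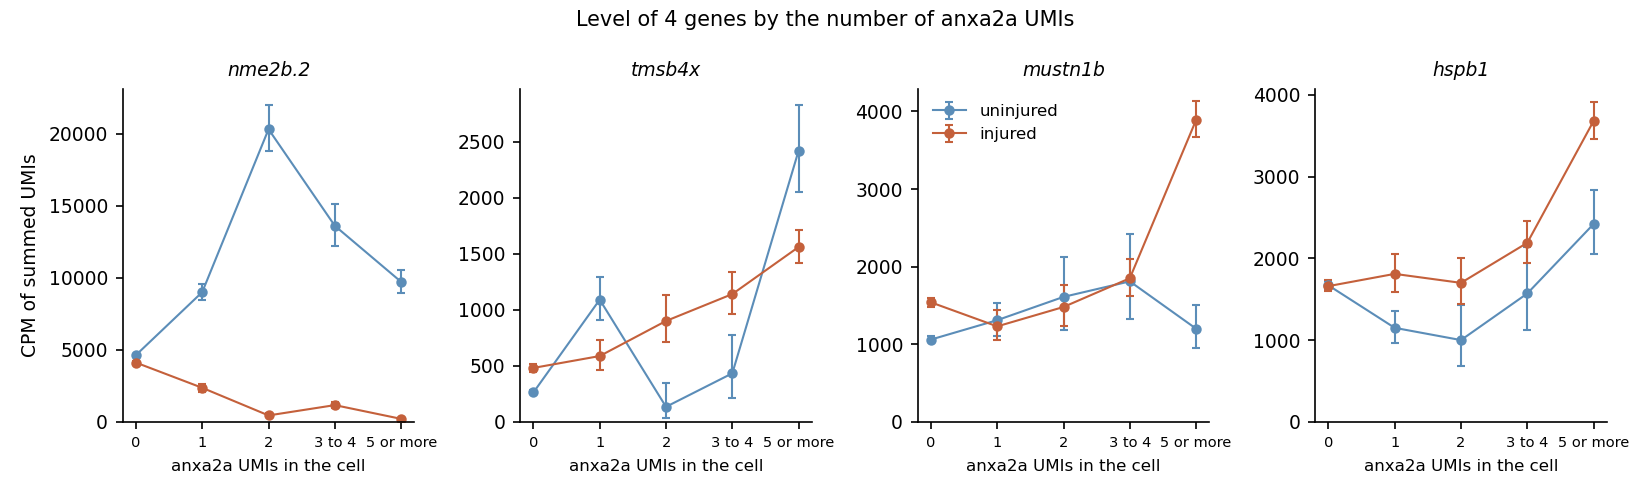
CPM of summed UMIs of 4 genes in cardiomyocytes with 0, 1, 2, 3 to 4 and 5 or more anxa2a UMIs, with Poisson 95% intervals for counting error. In the injured library tmsb4x climbs from 481 to 1560 and nme2b.2 falls from 4110 to 205. In the uninjured library, with 5 or 6 cells in each of the last 3 bins, nme2b.2 lies above its anxa2a-zero level of 4630 in all bins.

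In the uninjured library, fewer genes were higher in anxa2a cardiomyocytes when the 5 cells with other-type RNA were left out of the 17. The part of that RNA in this was not tested. Of 3654 genes 351 (9.61%) were higher and 51 (1.4%) lower, and TMM scaling, which lowers every ratio there by 0.85, turned this into 147 and 637. Without the 5 cells with other-type RNA 206 (5.81%) were higher and 40 (1.13%) lower. Of 17 AP-1 and immediate early genes 16 were higher (median 2.13 against 0.08 for all genes), such as fosab (2.67) and junba (3.0). Without the 5 cells 8 of 16 were, at a median of 1.1. Of 13 mitochondrially encoded genes 10 were lower with all 17 cells (-2.21) and also without the 5 (-2.48). Annexins (5 of 7 higher) fell to 1 of 6, the cytoskeleton list (7 of 13) to 0 of 10 and heat shock (7 of 19) to 2 of 18 with 1 lower. Nuclear respiratory chain genes went the other way, from 2 of 95 higher to 25 of 95. With TMM scaling of all 17 cells, 12 AP-1 genes and 6 cytoskeletal genes were still higher, but 10 of 14 cardiomyocyte markers, 11 of 19 sarcomere genes and 76 of 81 ribosomal protein genes were lower.

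The uninjured values of several genes higher in both libraries moved when the 5 cells were left out, which also leaves fewer UMIs to measure. There were 64 such genes of 3017 measured in both (2.12%), 6 lower in both (0.199%) and 19 with opposite calls (0.63%), among them nppa, which was lower in the uninjured library (134 against 331 CPM, log2 ratio -1.30). Without cells over the limit 26 of 2984 (0.871%) were higher in both and 6 (0.201%) lower. tmsb4x had an uninjured log2 ratio of 2.44 with the 5 cells and -0.54 without them. s100a10b (5.73), icn (6.25), tagln2 (4.07) and fabp11a, a fatty acid binding protein gene (6.97), had 0 UMIs in the other 12 cells. Their intervals there reached 2.53, 3.29, 3.67 and 3.38, above the injured ratios of 2.14, 2.34, 1.97 and 2.45, so these counts of 0 do not separate the libraries. krt8 (5.27) was at 1.43 (-1.67 to 3.39) and jpt1b (2.26) at 0.95 (-0.52 to 2.11), neither called. ifitm1, an interferon-induced membrane protein gene (2.66), was at 1.27 (-1.05 to 2.89), also not called. junbb was called in both libraries (injured 1.51, uninjured 3.01) and also without the 5 cells (2.35). rcan1a, a calcineurin inhibitor, was too (1.43, 2.17 and 2.46), but on 8 uninjured UMIs in 3 cells, and was not called there against depth-matched cells (1.77) or without the top cell (1.42).

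Genes lower in both libraries included gamt, an enzyme of creatine synthesis (injured -0.70, -1.04 to -0.38; uninjured -1.26, -1.83 to -0.74), and acsl1b, an acyl-CoA synthetase that feeds fatty acids to oxidation (-0.70 and -1.33). gamt was at 182 against 297 CPM in the injured and 251 against 602 CPM in the uninjured library, and kept both calls without cells over the limit (-0.72 and -1.23). The other 4 were rbp2a (13 against 261 UMIs injured, 2 against 214 uninjured), the globin gene hbba1 (0 against 115 UMIs uninjured) and the mitochondrially encoded mt-nd2 and mt-nd3. Without cells over the limit rbp2a (uninjured -1.22) and hbba1 were no longer called in the uninjured library and tcap (-1.04) was, so the 6 genes lower in both are not the same. acsl1b was at -0.52, not called, in the injured library without the 3 cells with most anxa2a.

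Set against each other, injured anxa2a cardiomyocytes held more nppa, txn and ifi45 and less nme2b.2 than uninjured ones. Of 1560 genes 155 (9.94%) were higher and 163 (10.4%) lower in the injured cells. Without cells over the limit these were 134 of 1444 (9.28%) and 117 (8.1%), and with TMM scaling 376 and 108. In anxa2a-zero cardiomyocytes the same contrast gave 448 higher (10.1%) and 154 lower (3.48%) of 4425. nppa was 1420 against 134 CPM (log2 ratio 3.40, 2.69 to 4.22), while the anxa2a-zero cells differed by 1.28. txn was 312 against 25.1 CPM (3.63, 2.06 to 5.93; 1.75 in anxa2a-zero cells). ifi45, named as an interferon-induced gene, had 198 UMIs against 1 (5.58; 2.17 in anxa2a-zero cells). The uncharacterised si:ch211-270g19.5 had 252 against 2 (4.93; -0.35 in anxa2a-zero cells). ankrd1a had 62 UMIs against 0, with 48 of them in 1 cell. Against a floor of 3 UMIs it was 5.0-fold higher (log2 ratio 2.32, interval from 1.98), and at 0.23 without the top cell. In anxa2a-zero cells it was at 4.88 (2.90 to 7.99), on 30 against 2 UMIs. nme2b.2 was lower (492 against 13200 CPM, -4.75; -0.17 in anxa2a-zero cells).

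The other genes ranked lowest in injured against uninjured anxa2a cells were nppc, a natriuretic peptide gene (1 against 98 UMIs), spock3 and aqp8a.1 of the endocardium list (3 against 116 and 4 against 80), and krt94 of the epicardium list (13 against 212). Without the 5 cells the uninjured side held 1 UMI each of nppc and aqp8a.1 and 0 of the others. The 5 cells were picked by lists that hold spock3, aqp8a.1 and krt94, so the fall of these genes follows from that choice. tmsb4x was at -0.09 with all cells and at 2.92 without the 5, and s100a10b at -3.01, with 39 UMIs against 0 without cells over the limit.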

How the data were processed

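The authors deposited UMI counts as 1 filtered matrix per library. Per the file headers these came from Cell Ranger 4.0.0. The submitters' processing notes name Cell Ranger, Seurat and the zebrafish build GRCz11, and the libraries used a droplet 3′ kit, per the labels' protocols. The deposited counts were used unnormalised, with symbols as in the files. Kept barcodes had at least 200 genes and at most 25% mitochondrial UMIs, and held 7982726 (uninjured) and 6695501 UMIs (injured). Cardiomyocytes had at least 3% myl7.

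The members and the gene lists were chosen with earlier results of these data known. UMIs were summed per library and class. The class totals were 119346 and 493468 UMIs for anxa2a cardiomyocytes and 3413951 and 1742992 for anxa2a-zero ones (uninjured and injured). Ratios of CPM had conditional binomial intervals, shares Clopper-Pearson and single levels Poisson intervals, all at 95% and for counting error only. A gene was measured with at least 20 UMIs over both classes. It was called higher or lower beyond 1.5-fold with an interval that excluded 1. A fold against 0 UMIs used a floor of 3 UMIs over the group. With 1 library per group no test was possible, and p-values over cells were not computed. The ratios and intervals were tested on simulated data.

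Genes named were the 12 highest and the 2 lowest eligible by the bound nearest to a ratio of 1 in the less extreme library, the 5 highest and 5 lowest between libraries, and list members. The 12 highest and 12 lowest of the injured library alone were added after values were seen. Also chosen then were medians over genes with at least 5 expected UMIs in each class, the split of nme2b.2 at 1000 CPM, the split at 5% myl7, the 3 cells over 50 anxa2a UMIs, and the lists of proteasome subunits, p53 targets and cytokine feedback genes. The 34 other lists (12 of cell types, 22 of pathways) held 404 of 414 listed symbols. The lists of neutrophil, lymphocyte, thrombocyte, outflow smooth muscle and nerve markers had at most 1 measured gene and no call in either library.

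Scrublet, run through scanpy 1.11.5, marked 11 of 3402 kept barcodes (0.323%), too few for a working caller, so doublets were not removed and UMIs of other cell types are given instead. The marked barcodes included 2 of 17 uninjured and 1 of 88 injured anxa2a cardiomyocytes, against 1 of 1005 and 0 of 492 anxa2a-zero ones. The part of doublets in the results was not tested. TMM factors came from edgeR 4.0.16, and the rest from Python 3.11.15, numpy 2.4.6, scipy 1.17.1 and pandas 2.3.3, with figures from matplotlib 3.10.9.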

Additional observations from a re-analysis of the deposited data

Results flagged for a closer look

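The ratio of anxa2a to anxa2a-zero cardiomyocytes went opposite ways in the uninjured and the injured library for 7 of the genes named or on a gene list. The difference was not tested, since each library is 1 sample. For nme2b.2 the log2 ratio was 1.51 uninjured and -3.06 injured, with 17 of 17 against 32 of 88 anxa2a cells holding it. For nppa it was -1.30 uninjured (16 UMIs in 7 cells) and 0.82 injured. The injured value was not called without the 3 cells (0.46), with TMM scaling (0.47) or among cells with at least 5% myl7 (-0.04). For the uncharacterised si:ch211-270g19.5 it was -4.49 uninjured, where 1 anxa2a cardiomyocyte held its 2 UMIs, and 0.79 injured (0.44, not called, with TMM scaling). For hsp70.1 it was 2.28 uninjured, 1.04 without the 5 cells with RNA of other types, and -1.14 injured. For ddx54 it was 2.16 uninjured, where 1 cell held 30 of the 31 UMIs, and -2.68 injured. For hsp70.2, its near copy, it was 2.37 uninjured, 0.59 and not called without the 5 cells, and -0.64 injured. For actn2b it was 0.75 uninjured, 1.02 without the 5 cells and -0.10, not called, with TMM scaling, and -0.65 injured.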

How the results depend on the processing

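No paired analysis was possible because each group is 1 library and carries no replicate number. The share of anxa2a cardiomyocytes was 4.19% uninjured and 20.9% injured with 1 or more anxa2a UMIs, and 10.3% injured with 3 or more. Genes higher in the uninjured library numbered 206 with other-type RNA of at most 0.5%, 144 against depth-matched cells, 147 with TMM scaling, 226 at 50 UMIs, 808 with no minimum and 142 without the top cell, and those lower 637 with TMM and 92 without the top cell. Genes higher in the injured library numbered 172 with myl7 of at least 5%, 140 with TMM, 558 with no minimum and 222 without the top cell, and those lower 263 with TMM. Genes higher in both numbered 36, 26, 33, 24, 105 and 21 with myl7 of at least 5%, the other-type limit, depth-matched cells, TMM, no minimum and no top cell. Genes lower in both numbered 3 with 1 or more anxa2a UMIs, 10 with myl7 of at least 5%, 100 with TMM, 18 without the top cell and 3 without the 3 cells over 50 anxa2a UMIs. Between injured and uninjured anxa2a cells, 81 (myl7 of at least 5%) and 376 (TMM) were higher, and 108 (TMM), 99 (50 UMIs), 398 (no minimum) and 97 (no top cell) lower.

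Log2 ratios that changed sign were, with the other-type limit, uninjured tmsb4x -0.54, hspb1 -0.66 and ddx54 -2.11, and injured over uninjured tmsb4x 2.92, s100a10b 0.98, krt8 1.09 and si:ch73-335l21.4 1.48. With myl7 of at least 5% they were injured nppa -0.04, nppb -0.86 and ifi45 -0.77, and injured over uninjured tmsb4x 0.60, C25H11orf96 -1.01 and nppb -1.15. Without Scrublet-marked cells, uninjured C25H11orf96 was -0.06 and ddx54 -2.41, and without the top cell ddx54 was -2.55. Without the 3 cells nppal was -0.26 (injured) and C25H11orf96 -0.85 (injured over uninjured). With 1 or more anxa2a UMIs injured si:ch211-5k11.8 was 3.82. TMM turned uninjured ccni to -0.81, nppb to -0.70, desma to -0.76 and hspb1 to -0.68, by its shift alone. The cause of the other changes was not tested. The 17 uninjured cells, with 119346 UMIs, limit every value that rests on that library.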

Other observations

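Some genes of 3 groups looked up after the values had been seen were higher in injured anxa2a cardiomyocytes, given here as counts beside the 11.7% higher over all genes. Of 40 proteasome subunit genes measured, 15 were higher, such as psma5 and psmb3, and 2 lower, psmb12 and psmb8a, with a median log2 ratio of 0.70 against 0.20 for all genes. With TMM scaling 6 were higher and 4 lower, without the 3 cells with most anxa2a 9 and 3, and among 38 measured in cells with at least 5% myl7 3 and 3 (median 0.21). The 11.7% is 371 genes with all cells, and the higher calls over all genes were 140, 266 and 172 in the same order. The lower calls over all genes were 81 with all cells, then 263, 74 and 93. Of 9 p53 target genes, cdkn1a (2.73), phlda3 (1.93, 1.09 to 2.78) and rps27l (1.42, 1.05 to 1.78) were higher and 0 lower. The same 3 were called with TMM scaling and without the 3 cells, where the list medians were 0.03 and 0.08 against 0.39 with all cells. In cells with at least 5% myl7, phlda3 and rps27l were higher and gadd45ba lower. phlda3, a brake on Akt signalling, had 27 UMIs in 15 of 88 cells against 25 in 15 of 492, and rps27l 114 UMIs in 42 cells against 151 in 92.

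Of 7 genes of cytokine signal feedback 4 were higher. cishb and socs3b, which damp JAK-STAT signalling, had log2 ratios of 1.66 (1.08 to 2.23) and 1.29 (0.88 to 1.69), and 1.78 and 1.16 without the 3 cells. socs3a (0.67) and the kinase gene pim1 (0.76) were the other 2, and were not called with TMM scaling or without the cell with other-type RNA. In the uninjured library, with 9.61% of all genes higher, 5 of 37 proteasome, 3 of 8 p53 target and 6 of 7 cytokine feedback genes were higher and 0 lower. Without the 5 cells with other-type RNA these were 4, 1 and 3, and with TMM scaling 0, 2 and 3 higher and 2, 2 and 0 lower. hmgn2, a nucleosome-binding protein gene, was higher in both libraries (1.48 injured, 0.84 uninjured, and 0.97 there without the 5 cells), and was chosen after its values were seen. TMM scaling lowers every uninjured ratio by 0.85, which takes away the uninjured call of hmgn2.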
